A study of Drosophila melanogaster with 6 samples.

Results

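Autophagy, lysosomal enzyme and granule trafficking genes were followed in eye-antennal imaginal discs of Drosophila melanogaster, the larval tissue that forms the eye, the antenna and the head capsule. Genes were taken by symbol from the count table: every symbol that starts with Atg and a digit, and 22 further names of lysosomal, membrane fusion and eye-colour granule genes. This gave 40 of the 16727 genes listed, 20 Atg genes and 20 others. The names Vps18 and Vps41 stand in the table as dor and lt, which are also on the list. The discs were taken from larvae 11 days after egg laying (3 libraries), when the tissue had finished growing, and 5 days after egg laying (3 libraries), when it was still growing. All larvae had the genotype y w; +/+; +/+ and grew at 25 °C on food made from an erg2 mutant yeast, which lacks the sterols a larva needs to make moulting hormone, so that they did not pupate. Each library pooled at least 30 discs and was made by 3′ tag sequencing of polyadenylated RNA. Larval age and the length of feeding on this medium changed with the day as well, so that their share and that of completed growth cannot be told apart.

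Autophagy encloses part of the cytoplasm in a double membrane, the autophagosome, and delivers it to the lysosome for digestion. The Atg1 kinase complex starts the process, vesicles carrying Atg9 and the lipid transfer protein Atg2 supply membrane, the Atg6 and Atg14 lipid kinase complex marks the site, and a pair of ubiquitin-like conjugation systems attaches Atg8a to the growing membrane. The HOPS tether and the syntaxin Syx17 then bring about fusion with the lysosome. In larval fat body and other fly tissues the pathway is known to be turned on by starvation and by moulting hormone and held back by the TOR kinase. The fly eye has also supplied many genes of this system, because eye pigment is stored in granules related to lysosomes: the eye-colour loci of the granule group encode HOPS subunits (dor, car, lt), the AP-3 adaptor (g, rb, cm, or) and further trafficking factors (p, ca).

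Total counts per library were 7670180 to 9049513 at day 11 and 6542782 to 7950251 at day 5. All 8 disc markers (ey, toy, so, eya, dac, Dll, oc and al) had counts, with sums of 505.5 to 683.1 CPM at day 11 and 637.4 to 812.7 CPM at day 5, where CPM are read counts relative to the TMM-scaled total of their library. Markers of neighbouring tissues varied between libraries. The 6 salivary gland markers summed to 103.4, 111.1 and 1223 CPM in replicates 1 to 3 of day 11, against 8.19, 17.3 and 4.93 CPM at day 5. The 6 fat body markers summed to 73.7, 961.9 and 118.5 CPM at day 11, against 636.6, 301.6 and 63.4 CPM at day 5. The 7 haemocyte markers summed to 79.1, 182.2 and 113.1 CPM at day 11, against 55.0, 71.8 and 72.1 CPM at day 5. None of these markers was at 0 in all libraries. The abundant RNAs CR40469 and CR34335 together took 26.3%, 40.8% and 39.6% of all counts in replicates 1 to 3 of day 11. At day 5 they took 14.5% to 19.0%.

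At day 11, 7 of the genes rose and 3 fell among the 37 that passed the filter on low counts (quasi-likelihood test in edgeR, p below 0.05 after adjustment over all genes tested). The early autophagy genes Atg9, Atg17, Atg13 and Atg2, the membrane tag Atg8a, the lysosomal membrane gene Lamp1 and the cathepsin L gene Cp1 were higher, and Atg14, the HOPS gene Vps16A and the AP-3 gene or were lower. Of these genes 27.0% were called, against 37.0% of all 8010 genes tested. The share that rose was 18.9%, against 19.1% in the background, and the share that fell 8.11%, against 17.9%. The days did not overlap for 12 of the 37 genes, 9 of them higher and 3 lower at day 11, a share of 32.4%, while the days did not overlap for 50.8% of all genes tested (25.6% higher and 25.2% lower at day 11). The median log2 fold change was 0.23, against -0.0065 over all genes tested. The share called was thus below that of the whole table. Of the 17 Atg genes tested 5 rose and 1 fell, and of the 20 others 2 rose and 2 fell. In whole discs, more cells of one kind and more RNA in each cell cannot be told apart.

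**Figure D1:**
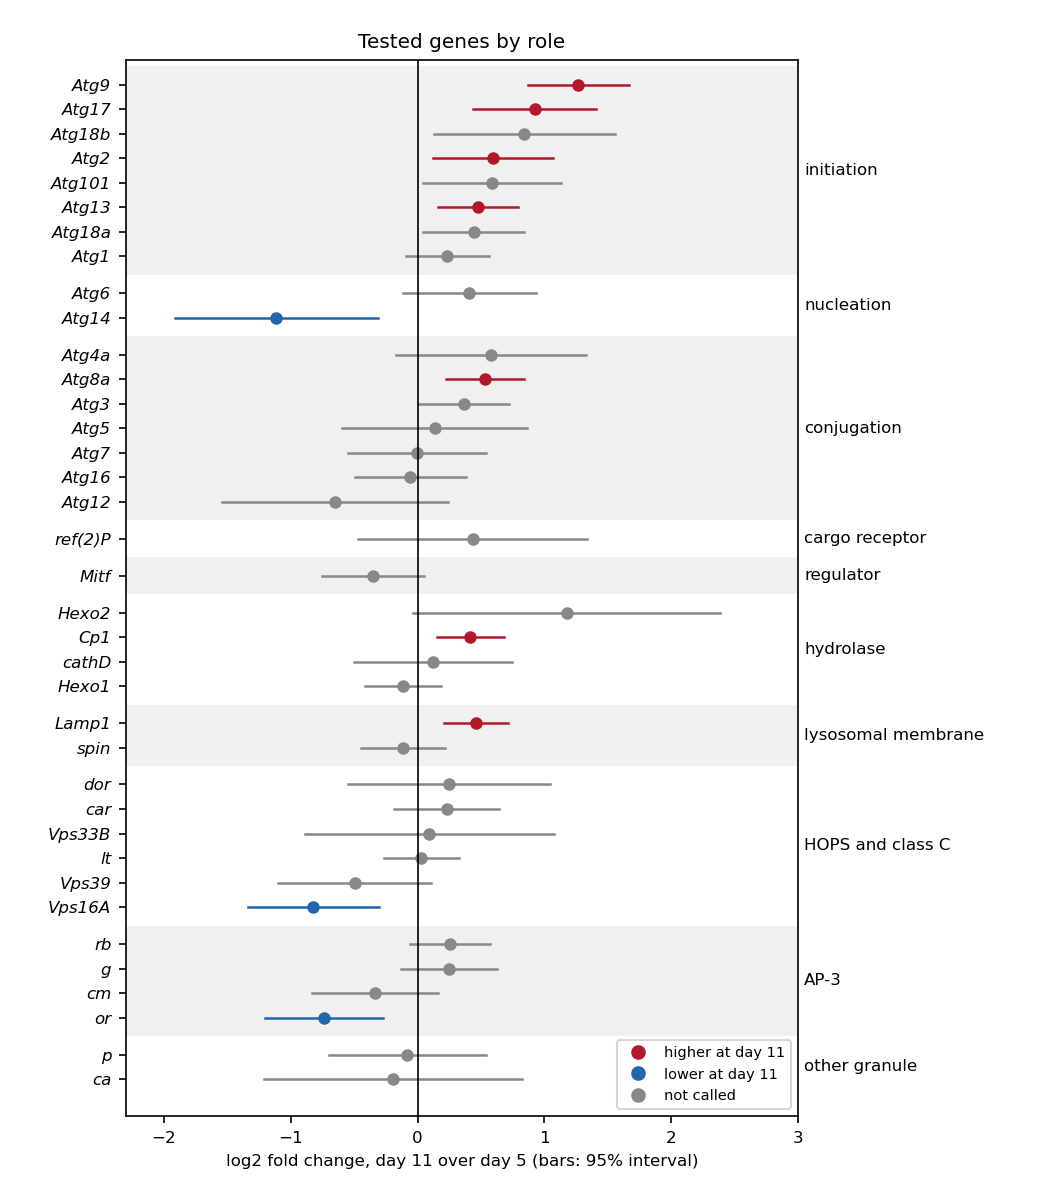
Log2 fold change of each of the 37 tested genes at day 11 over day 5 (horizontal axis), grouped by role, with bars for the 95% interval from the edgeR fit and colour for the call. With TMM, as drawn, the 8 initiation genes all lie to the right of 0 (Atg1 was at -0.029 with total counts), while HOPS and AP-3 genes lie on both sides of it.

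Most of the rises were of genes that start an autophagosome. Of 8 initiation and membrane supply genes 4 rose, or 50% against 19.1% of all genes tested, and none fell. All 8 had a positive log2 fold change, with a median of 0.59 and a range of 0.23 to 1.27. Atg1 was, however, at -0.029 when libraries were scaled by total counts. Over all genes tested 49.6% were positive and the median was -0.0065. Atg9, which encodes the only transmembrane protein of the core set and travels on small vesicles, had 34.2, 23.95 and 31.5 CPM at day 11, against 11.9, 12.5 and 12.9 CPM at day 5. Every day 11 library lay well above every day 5 library, and the log2 fold change was 1.27 (SE 0.18, edgeR adjusted p = 0.000312), or 2.41-fold. Atg9 lies on chromosome 2R from 16294400 to 16297232 (dm6), where no other annotated gene overlaps it, and it was the one gene of the 10 called that stayed past the threshold under all 17 other processing choices.

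In the Atg1 kinase complex the scaffold and a regulatory subunit rose, and the kinase was not called. Atg17, the fly counterpart of the mammalian scaffold FIP200, had 218.3, 110.7 and 144.1 CPM at day 11, against 88.4, 83.6 and 77.9 CPM at day 5. The day 11 libraries were spread over a wide range but all stood above day 5 (log2 fold change 0.92, SE 0.22, edgeR adjusted p = 0.00834), with a log2 fold change of 0.62 when day 11 replicate 1 was left out. The call of Atg17 was lost with scaling by total counts (log2 fold change 0.68, edgeR adjusted p = 0.0715). The Atg17 locus is chromosome 3R from 5669713 to 5679930. Atg13, the regulatory subunit through which TOR acts on the kinase, had 115.3, 92.9 and 101.9 CPM at day 11, against 64.1, 77.1 and 81.8 CPM at day 5 (log2 fold change 0.48, SE 0.15, edgeR adjusted p = 0.0232). The days did not overlap, but the call of Atg13 was lost under 5 of 17 other choices, among them leaving out day 5 replicate 1 (edgeR adjusted p = 0.108), day 5 replicate 2 or day 11 replicate 3. Atg13 lies on chromosome 3R from 8349815 to 8352817. The kinase gene Atg1 itself had 72.3, 52.5 and 61.7 CPM at day 11, against 56.7, 50.04 and 52.2 CPM at day 5. These values overlapped, and its log2 fold change of 0.23 (95% interval -0.10 to 0.56) was not called. Atg101, which stabilizes Atg13, had 9.40, 12.7 and 13.2 CPM at day 11, against 8.19, 9.02 and 6.19 CPM at day 5. Here the days did not overlap, but the log2 fold change of 0.59 (95% interval 0.05 to 1.13) missed the threshold (edgeR adjusted p = 0.0826). Atg101 lies within the S6KL locus on the same strand, so reads of both genes may be shared. S6KL, listed as Pk17E, had 3.11 ± 1.66 CPM at day 11 and 1.81 ± 0.404 CPM at day 5 (SD, n = 3 each).

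The other membrane supply genes had estimates below that of Atg9. Atg2, which bridges membranes and moves lipid between them, had 11.0, 13.8 and 12.8 CPM at day 11, against 7.93, 8.90 and 7.96 CPM at day 5 (log2 fold change 0.60, SE 0.22, edgeR adjusted p = 0.0480). The days were separate, but this call lay at the threshold and was lost under 12 of 17 other choices. Atg18a, a lipid-binding partner of Atg2, had 20.2, 25.8 and 29.8 CPM at day 11, against 17.3, 19.1 and 19.2 CPM at day 5. Its days did not overlap either, with a log2 fold change of 0.44 (95% interval 0.04 to 0.84) that was not called (edgeR adjusted p = 0.0769). Its paralog Atg18b had 10.9, 7.67 and 11.9 CPM at day 11, against 8.59, 4.33 and 4.17 CPM at day 5. The first day 5 library overlapped the day 11 range, and the log2 fold change of 0.84 (95% interval 0.13 to 1.55) was not called (edgeR adjusted p = 0.0626). Without day 11 replicate 1 the calls in this role numbered 6, and without day 11 replicate 3 or without day 5 replicate 2 they numbered 2. With the trend on transcript length removed they also numbered 2, Atg9 and Atg17. Scaling by total counts left 1 call, and total counts without the abundant RNA pair gave 7.

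In the lipid kinase complex, Atg14, which targets the kinase to autophagosome formation sites, fell. It had 2.88, 4.45 and 4.79 CPM at day 11, against 9.25, 11.9 and 4.93 CPM at day 5. The third day 5 library was barely above the day 11 range, and the log2 fold change was -1.12 (SE 0.37, edgeR adjusted p = 0.0317). The call of Atg14 was lost without day 5 replicate 1 or 2, without day 11 replicate 1 or 3, and with limma-voom. Its locus, chromosome 3R from 29116391 to 29118390, shares 61 nt at the 3′ end with yem on the opposite strand. That neighbour stood at a log2 fold change of -0.13 (SE 0.29, not called). Atg6, the Beclin gene common to all forms of the complex, had 13.0, 26.1 and 20.9 CPM at day 11, against 15.3, 15.8 and 13.9 CPM at day 5. The libraries overlapped through the low day 11 replicate 1 (log2 fold change 0.41, 95% interval -0.12 to 0.93), without which Atg6 was called (0.65, edgeR adjusted p = 0.0153). Among the partners, the catalytic subunit gene Pi3K59F had 2.00 ± 1.61 CPM at day 11 and 2.03 ± 0.542 CPM at day 5 (SD, n = 3 each), too low for a firm statement. Uvrag, which takes the place of Atg14 in the endosomal form of the complex, stood at a log2 fold change of 0.31 (95% interval -0.10 to 0.73, not called).

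Of the 10 conjugation genes 7 were tested, and only Atg8a was called. The share called was 14.3%, against 37.0% of all genes tested, and the share that rose 14.3%, against 19.1%. Atg8a encodes the ubiquitin-like protein that is coupled to the autophagosome membrane and is the usual marker of autophagy. It had 178.5, 153.0 and 167.4 CPM at day 11, against 112.4, 99.96 and 133.1 CPM at day 5. The days did not overlap (log2 fold change 0.53, SE 0.14, edgeR adjusted p = 0.0116), at chromosome X from 10764878 to 10768338. The call of Atg8a was lost without day 5 replicate 1 (edgeR adjusted p = 0.0515) and without day 5 replicate 2 (edgeR adjusted p = 0.0827). It was also lost with scaling by total counts (log2 fold change 0.26, edgeR adjusted p = 0.326). The enzymes that attach it showed no called difference. The E2-like gene Atg3 had 42.1, 32.2 and 43.0 CPM at day 11, against 26.6, 30.6 and 34.2 CPM at day 5, with 1 day 11 library inside the day 5 range (log2 fold change 0.36, 95% interval 0.0036 to 0.72, edgeR adjusted p = 0.104). For the E1-like gene Atg7 the days were close, with 7.08 ± 0.671 CPM at day 11 and 7.10 ± 0.109 CPM at day 5 (SD, n = 3 each), and an interval of -0.55 to 0.54 for the log2 fold change.

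The second conjugate, Atg12 joined to Atg5 and held by Atg16, showed no called member. The log2 fold change was -0.06 for Atg16 (95% interval -0.50 to 0.38), 0.14 for Atg5 (95% interval -0.59 to 0.86) and -0.65 for Atg12 (95% interval -1.54 to 0.24). The Atg5 locus lies inside CG1677 on the same strand, so its reads may be shared with that gene. The protease gene Atg4a, whose product trims Atg8a, stood at 0.58 (95% interval -0.17 to 1.33). The remaining conjugation genes were near the counting limit and not tested. Atg10 had 11, 5 and 9 counts at day 11, against 16, 7 and 9 at day 5, and Atg4b had 6, 5 and 1 counts at day 11, against 7, 1 and 3 at day 5. Atg8b, a paralog of Atg8a known from the male germline, had 0, 0 and 3 counts at day 11 and none at day 5. A count of 0 allows up to 0.321 to 0.461 CPM in a library (3 counts, counting error alone). The cargo receptor ref(2)P, the fly p62, which is itself degraded by autophagy, had 7.16, 3.22 and 4.94 CPM at day 11, against 2.38, 3.49 and 5.56 CPM at day 5. These overlapped, and the interval of its log2 fold change, -0.47 to 1.34, was wide.

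**Figure D2:**
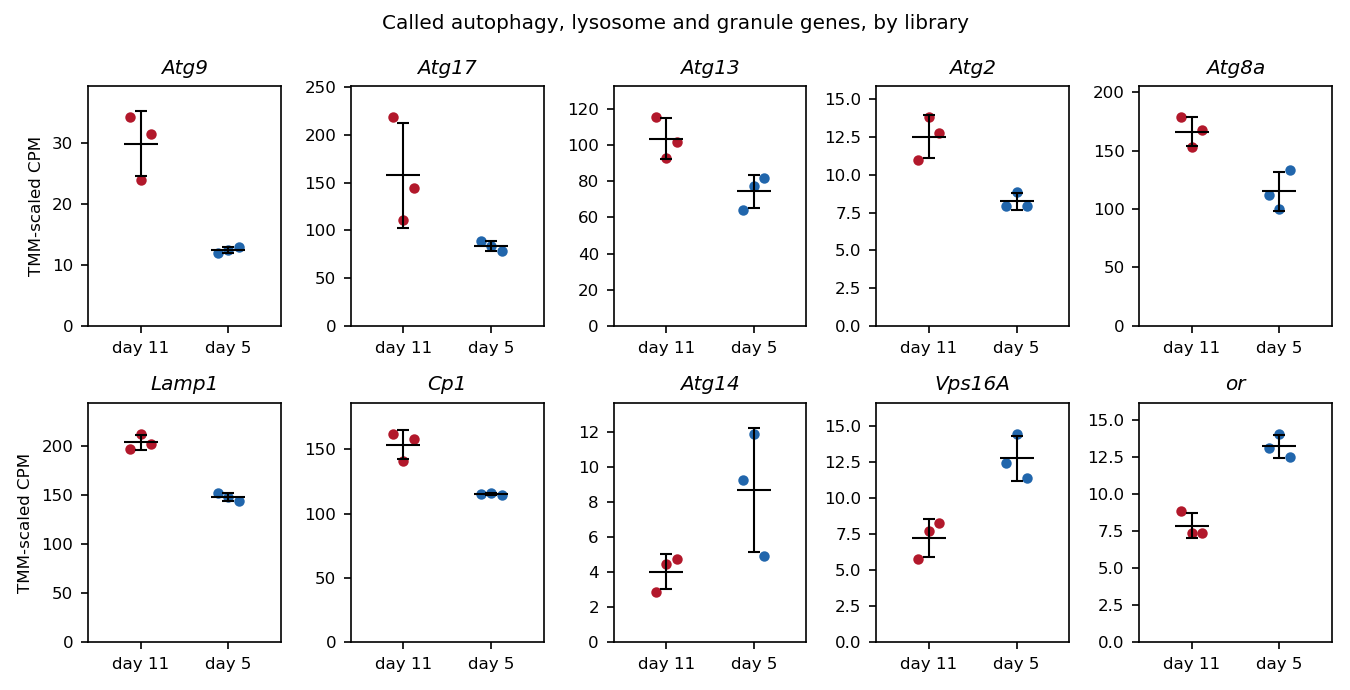
TMM-scaled CPM (vertical axes, from 0) of the 10 called genes in each library, day 11 on the left and day 5 on the right, with the mean and SD of the 3 libraries as black bars. Atg9 and Lamp1 separate the days widely, while the third day 5 library of Atg14 lies just above the day 11 points.

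Partner genes of these pathways that are outside the list of 40 were called in 21.4% of 42 tested cases, against 37.0% of all genes tested. Among 11 partner genes of autophagy, 2 rose and none fell. The share that rose was 18.2%, against 19.1% of all genes tested, of which 17.9% fell. Syx17, the syntaxin that autophagosomes carry for fusion, had 9.72, 11.2 and 9.58 CPM at day 11, against 4.49, 3.37 and 2.91 CPM at day 5. Every day 11 library stood above the highest day 5 library (log2 fold change 1.50, SE 0.28, edgeR adjusted p = 0.00158), and Syx17 was called under all 17 other choices. Rab7, the GTPase of late endosomes and lysosomes, had 83.1, 78.9 and 92.3 CPM at day 11, against 64.3, 65.8 and 66.6 CPM at day 5 (log2 fold change 0.37, SE 0.13, edgeR adjusted p = 0.0407). That call lay near the threshold and was lost under 8 of 17 other choices. Neither of the fusion partners of Syx17 was called, with log2 fold changes of 0.31 (SE 0.24) for Snap29 and -0.21 (SE 0.19) for Vamp7.

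Mitf, the fly counterpart of the mammalian TFEB and MITF factors that drive lysosome and autophagy genes, had 52.3, 76.8 and 61.7 CPM at day 11, against 86.4, 93.3 and 63.3 CPM at day 5. The values overlapped, and the log2 fold change of -0.35 (95% interval -0.75 to 0.05, edgeR adjusted p = 0.153) was not called. It was called lower without day 11 replicate 2 (-0.51, edgeR adjusted p = 0.0458) and with scaling by total counts (-0.64, edgeR adjusted p = 0.0207).

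Lysosomal membrane and enzyme genes each had a single call, in 2 and 4 tested genes. The shares called were 50% and 25%, against 37.0% of all genes tested. Lamp1, which encodes the abundant glycoprotein of the lysosomal membrane, had 197.3, 212.5 and 202.2 CPM at day 11, against 152.2, 147.7 and 144.4 CPM at day 5. Both days were tight and well apart (log2 fold change 0.46, SE 0.12, edgeR adjusted p = 0.00849), at chromosome 2L from 21573389 to 21577103. The call of Lamp1 was lost with scaling by total counts (log2 fold change 0.18, edgeR adjusted p = 0.411). It lay at the threshold without day 5 replicate 2 (edgeR adjusted p = 0.0489). The efflux transporter gene spin, also of the lysosomal membrane, had 27.1, 23.95 and 30.9 CPM at day 11, against 28.8, 28.99 and 30.95 CPM at day 5, a log2 fold change of -0.11 (95% interval -0.44 to 0.22) that was not called. Cp1, now named CtsL1, encodes the cathepsin L protease. It had 162.0, 140.8 and 157.9 CPM at day 11, against 114.9, 116.1 and 114.6 CPM at day 5. The day 5 libraries were almost equal and all below day 11 (log2 fold change 0.42, SE 0.12, edgeR adjusted p = 0.0193). Its locus, chromosome 2R from 13960675 to 13967981, contains CG42806 on the same strand, which was also called higher (0.50, SE 0.18, edgeR adjusted p = 0.0474). Reads may be shared between both genes. The call of Cp1 was lost with any of the day 5 libraries left out and without day 11 replicate 3, at nearly the same fold change. It was also lost with scaling by total counts, at a log2 fold change of 0.15 (edgeR adjusted p = 0.549).

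The other enzyme genes were not called. cathD, the aspartic protease cathepsin D, had 58.6, 133.9 and 83.5 CPM at day 11, against 74.9, 88.5 and 89.7 CPM at day 5. Its highest and its lowest library were both from day 11, and the log2 fold change was 0.12 (95% interval -0.50 to 0.74), or -0.25 without day 11 replicate 2. Hexo2, a beta-hexosaminidase, had 6.73, 23.3 and 15.5 CPM at day 11, against 5.55, 3.97 and 10.5 CPM at day 5, a log2 fold change of 1.18 (95% interval -0.04 to 2.39) that was not called (edgeR adjusted p = 0.116). In Hexo2, too, the second day 11 library was highest and the first lowest of that day, and the gene was called without day 11 replicate 1 (1.54, edgeR adjusted p = 0.00795) and without day 5 replicate 3 (1.66, edgeR adjusted p = 0.0426). Without day 11 replicate 2 it stood at 0.73. The haemocyte marker sums ran in the same order, 79.1, 182.2 and 113.1 CPM in the 3 day 11 libraries. At day 5 they were 55.0 to 72.1 CPM. Of the haemocyte markers 2 of 5 tested rose, as did 2 of 5 for glia and 2 of 6 for salivary gland. Over all genes tested 19.1% rose. The fat body sum was also highest in the second day 11 library, as were the muscle (330.3 CPM) and ring gland (24.7 CPM) sums. Atg5 and Atg6 were likewise highest there among the day 11 libraries, as were 35.8% of all genes tested. At day 5 the fat body sums were 636.6, 301.6 and 63.4 CPM, an order that neither cathD nor Hexo2 followed. The haemocyte sums of day 5 ran in the order of cathD but not of Hexo2. The part of these tissues in the values of cathD, Hexo2, Atg5 and Atg6 was not tested. Hexo1 had 56.1, 61.1 and 48.6 CPM at day 11, against 62.8, 59.4 and 57.5 CPM at day 5. The days overlapped, and the second day 11 library was again the highest of its day (log2 fold change -0.12, 95% interval -0.42 to 0.19).

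**Figure D3:**
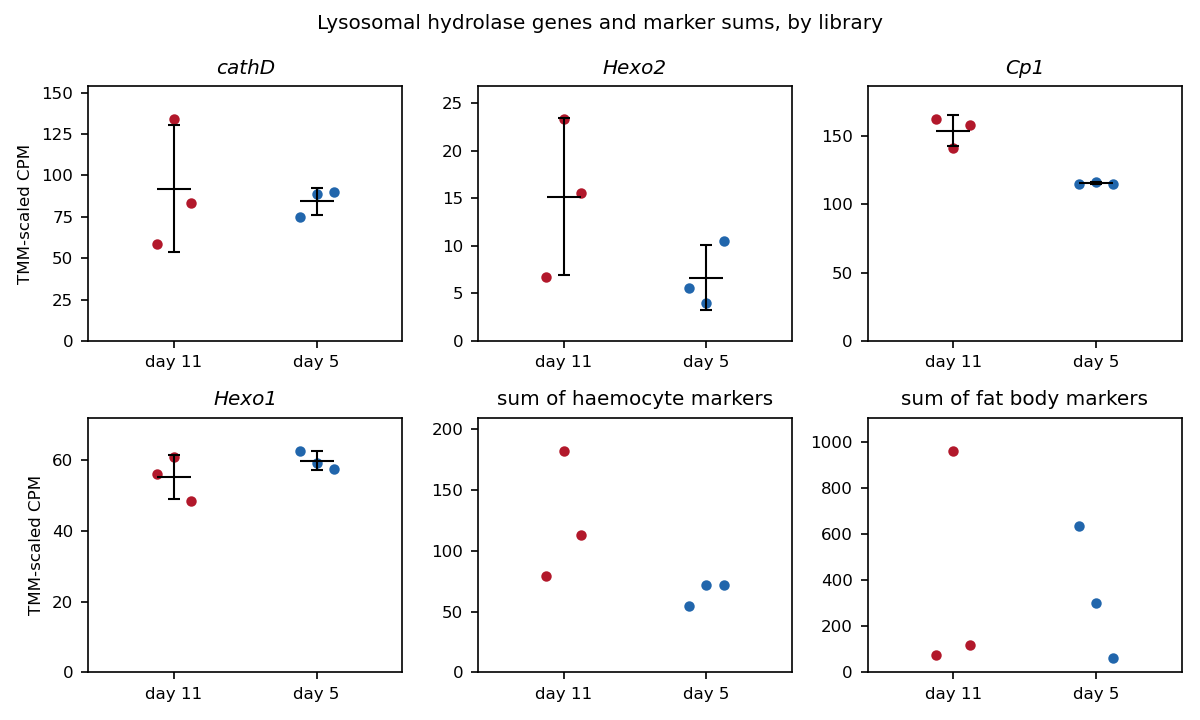
TMM-scaled CPM by library (vertical axes, from 0; day 11 left of day 5) for the 4 lysosomal hydrolase genes, with mean and SD, and for the summed haemocyte and fat body markers, as points alone. The second day 11 library is the highest for cathD and Hexo2 and for both marker sums, while Cp1 separates the days.

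Among partner genes of the lysosome, 4 rose and 2 fell of 18 tested from 37 found, or 22.2% higher and 11.1% lower, against 19.1% and 17.9% of all genes tested. Lerp, the receptor that sorts enzymes to the lysosome in flies, had 15.8, 11.97 and 14.5 CPM at day 11, against 7.79, 6.14 and 2.91 CPM at day 5 (log2 fold change 1.33, SE 0.32, edgeR adjusted p = 0.0067). Npc2b, a member of the family of sterol-binding lysosomal proteins, had 14.1, 20.6 and 17.1 CPM at day 11, against 4.62, 8.06 and 8.34 CPM at day 5 (log2 fold change 1.29, SE 0.26, edgeR adjusted p = 0.00268). For both genes the days were separate, and both stayed called under all 17 other choices. RNaseX25 (log2 fold change 0.59, SE 0.17) and Npc2g (2.23, SE 0.74), named after their values were seen, also rose. The call of RNaseX25 was lost without day 5 replicate 1 or 2, without day 11 replicate 3 and with total counts (0.32, edgeR adjusted p = 0.246). The largest of the Npc2g values, 8.14 CPM, was again in the second day 11 library, without which its log2 fold change was 1.11 (edgeR adjusted p = 0.236). The falls were those of CG14291, now Sgsh, a heparan sulphate sulphatase gene, and CG9796, now GILT1, a thiol reductase gene. CG14291 had 1.603, 7.52 and 4.94 CPM at day 11, against 14.0, 12.3 and 15.7 CPM at day 5 (log2 fold change -1.61, SE 0.44, edgeR adjusted p = 0.0172). CG9796 had 65.2, 109.9 and 108.0 CPM at day 11, against 129.6, 146.6 and 140.2 CPM at day 5 (log2 fold change -0.56, SE 0.19, edgeR adjusted p = 0.0348). The call of CG14291 was lost without day 5 replicate 1 or 3 or day 11 replicate 3, and that of CG9796 with any day 5 library left out, with the trend on transcript length removed (-0.33, edgeR adjusted p = 0.197) and with total counts without the abundant RNA pair.

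The HOPS tether, which joins autophagosomes and endosomes to lysosomes, had 1 called subunit. Of the 6 genes of this role, Vps33B included, 16.7% were called, against 37.0% of all genes tested. The share that fell was also 16.7%, against 17.9%. Vps16A had 5.77, 7.67 and 8.27 CPM at day 11, against 12.4, 14.4 and 11.4 CPM at day 5. All day 11 libraries were below day 5 (log2 fold change -0.82, SE 0.24, edgeR adjusted p = 0.0177), a 1.77-fold fall at chromosome 3R from 9267019 to 9270224. Of 17 other choices the call was lost under 1, without day 5 replicate 2 (edgeR adjusted p = 0.0774). car, which encodes the Vps33A protein that binds Vps16A, had 25.8, 37.0 and 31.7 CPM at day 11, against 24.2, 33.1 and 23.0 CPM at day 5. These values overlapped (log2 fold change 0.23, 95% interval -0.18 to 0.64). lt, the Vps41 gene, had 59.0, 56.0 and 62.4 CPM at day 11, against 58.8, 63.3 and 51.7 CPM at day 5, a log2 fold change of 0.03 (95% interval -0.27 to 0.33). Vps39 stood at -0.50 (95% interval -1.10 to 0.11), and was called lower with scaling by total counts (edgeR adjusted p = 0.0284). The Vps18 gene dor stood at 0.24 (95% interval -0.55 to 1.04), and the partner gene Vps11, listed as CG32350, at 0.01 (95% interval -0.33 to 0.34). With TMM scaling Vps16A was the one subunit called, and whether its change differs from that of the other subunits was not tested. Vps33B, which belongs to a separate tether with Vps16B, had 2.74 ± 0.306 CPM at day 11 and 2.56 ± 1.02 CPM at day 5 (SD, n = 3 each; log2 fold change 0.09, 95% interval -0.89 to 1.07). Its partner Vps16B, named after its values were seen, had 3, 5 and 3 counts at day 11, against 23, 16 and 14 at day 5, and was called lower (edgeR adjusted p = 0.0148), a call lost under 3 of 16 other choices.

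The AP-3 adaptor sorts cargo to lysosomes and pigment granules, and its subunit genes were spread on both sides of 0 with TMM scaling. The sigma subunit gene or (orange) had 8.87, 7.37 and 7.40 CPM at day 11, against 13.1, 14.1 and 12.5 CPM at day 5. The days were clearly apart (log2 fold change -0.74, SE 0.21, edgeR adjusted p = 0.0176), at chromosome 2R from 23967939 to 23968943. This call was lost without day 5 replicate 2 (edgeR adjusted p = 0.0645) and without day 11 replicate 3 (edgeR adjusted p = 0.0668). The mu subunit gene cm (carmine) had 8.98, 13.2 and 14.1 CPM at day 11, against 13.9, 13.9 and 17.8 CPM at day 5, with a log2 fold change of -0.34 (95% interval -0.84 to 0.16) that was not called. The large subunit genes had positive estimates with TMM, and estimates of -0.0002 for g and -0.0047 for rb with scaling by total counts. For g (garnet, delta) the values were 190.7, 122.0 and 124.0 CPM at day 11, against 122.7, 114.2 and 131.5 CPM at day 5. Only the first day 11 library stood out, and the log2 fold change was 0.25 (95% interval -0.13 to 0.63), or 0.0049 without that library. For rb (ruby, beta) they were 117.4, 89.0 and 90.6 CPM at day 11, against 89.2, 79.5 and 80.5 CPM at day 5, again with the first day 11 library highest (log2 fold change 0.25, 95% interval -0.06 to 0.57).

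The order of the AP-3 estimates was also the order of transcript length: 823 nt for or, 1621.5 nt for cm, 3993 nt for g and 4432 nt for rb. Fold changes ran with length in the whole table, with a median of -0.40 (log2) over the 1390 genes whose transcripts span at most 1000 nt and of 0.22 over the 1315 genes whose transcripts exceed 4000 nt. With that trend removed, the log2 fold change of or was -0.37 and no longer called (edgeR adjusted p = 0.204), while cm, g and rb stood at -0.27, 0.07 and 0.06. Of the other granule genes, p, a subunit of the BLOC-2 complex, had 10.04, 8.14 and 5.08 CPM at day 11, against 8.32, 7.82 and 8.59 CPM at day 5. Its log2 fold change of -0.08 (95% interval -0.70 to 0.54) was not called. The interval for ca, the exchange factor gene claret, was -1.21 to 0.83 at 2.17 ± 0.562 CPM at day 11 and 2.49 ± 0.900 CPM at day 5 (SD, n = 3 each). The granule and fusion partner list, with the Rab32 gene ltd and genes of the BLOC-1 complex, had no rise and 1 fall, Vps16B, in 13 tested genes. The share called was 7.69%, against 37.0% of all genes tested.

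**Figure D4:**
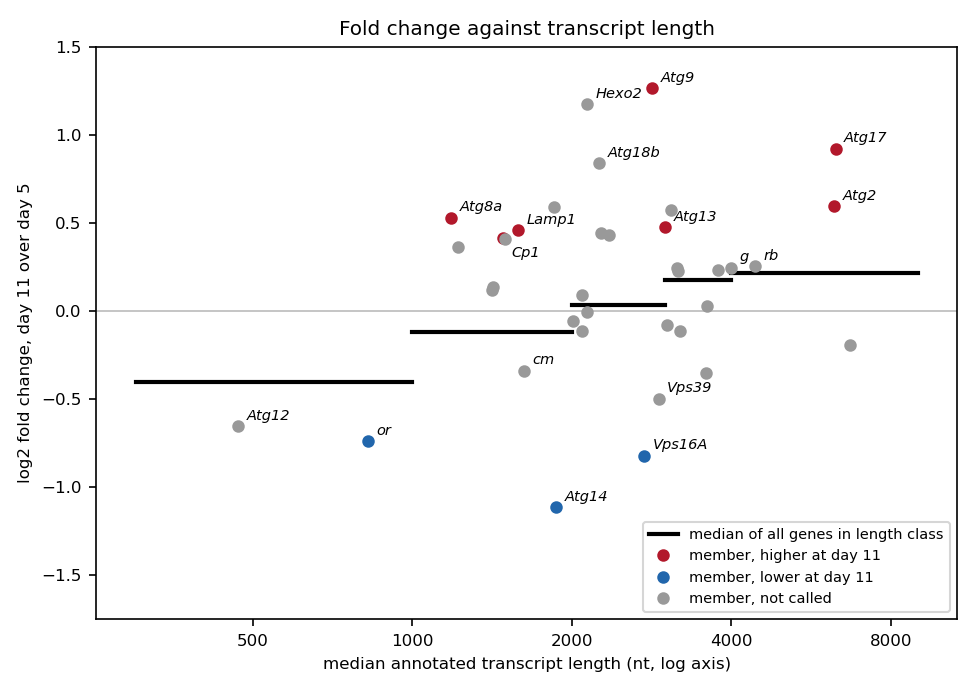
Log2 fold change at day 11 over day 5 (vertical axis) against median annotated transcript length in nt (log axis) for the 37 tested genes, coloured by call, with the median of all tested genes in each of 5 length classes as black lines. The short or and Atg12 lie low and the long g, rb, Atg17 and Atg2 lie higher, as the black lines do, while Atg8a, Lamp1 and Cp1 lie above the line of their class. The long ca, Mitf and Vps39 lie below the line of theirs.

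The 37 genes had a median transcript length of 2267 nt, against 2002 nt over all genes tested. Removing the length trend moved their median log2 fold change to 0.11. Lamp1 (0.54), Cp1 (0.52) and Atg9 (1.17) kept their calls there, and Atg13 (0.36, edgeR adjusted p = 0.0740) and Atg2 (0.35, edgeR adjusted p = 0.240) lost them. At 21 of the 40 loci another annotated gene overlaps, at 16 of them at the 3′ end, where tags fall. Among the 10 called genes, Atg14 and or overlap another gene at the 3′ end, which for the gene or means 3 nt shared with CG10904, and Cp1 does so elsewhere. Since the strand setting of the counting is not known here, reads at such ends may be shared. At the cathD locus, which shares 148 nt at the 3′ end with puml on the opposite strand, puml, listed as CG1882, rose (0.82 on the log2 scale, SE 0.22, edgeR adjusted p = 0.0130).

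The counts of called genes depended on single libraries and on the scaling. Leaving out day 5 replicate 2 left 3 rises and no fall, leaving out day 5 replicate 1 left 4 and 2, and leaving out day 11 replicate 3, the library with the high salivary gland sum, left 4 and 1. Leaving out day 11 replicate 1 gave 11 rises and 2 falls, and a median log2 fold change of 0.12. Of the 7 called rises, 5 were highest within day 11 in replicate 1 and 2 in replicate 2, and none in replicate 3. Over all genes tested 38.9% were highest within day 11 in replicate 1, 35.8% in replicate 2 and 25.3% in replicate 3. Of the 5 photoreceptor markers, ninaE was at 0 in all libraries, and 1 of 3 tested rose, against 19.1% of all genes tested. The 5 markers summed to 519.9, 252.8 and 312.4 CPM at day 11, against 283.5, 268.4 and 307.7 CPM at day 5. Atg17, g and rb were among the 12 of the 37 genes that were highest within day 11 in the same replicate 1. The part of photoreceptor cells in these values was not tested. With total counts as the scaling, the median of all genes moved to -0.28, which left Atg9 as the sole rise and gave 6 falls. The distance between the median of these genes and that of all genes was 0.24 on the log2 scale both with TMM and with total counts, and 0.13 without day 11 replicate 1.

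**Figure D5:**
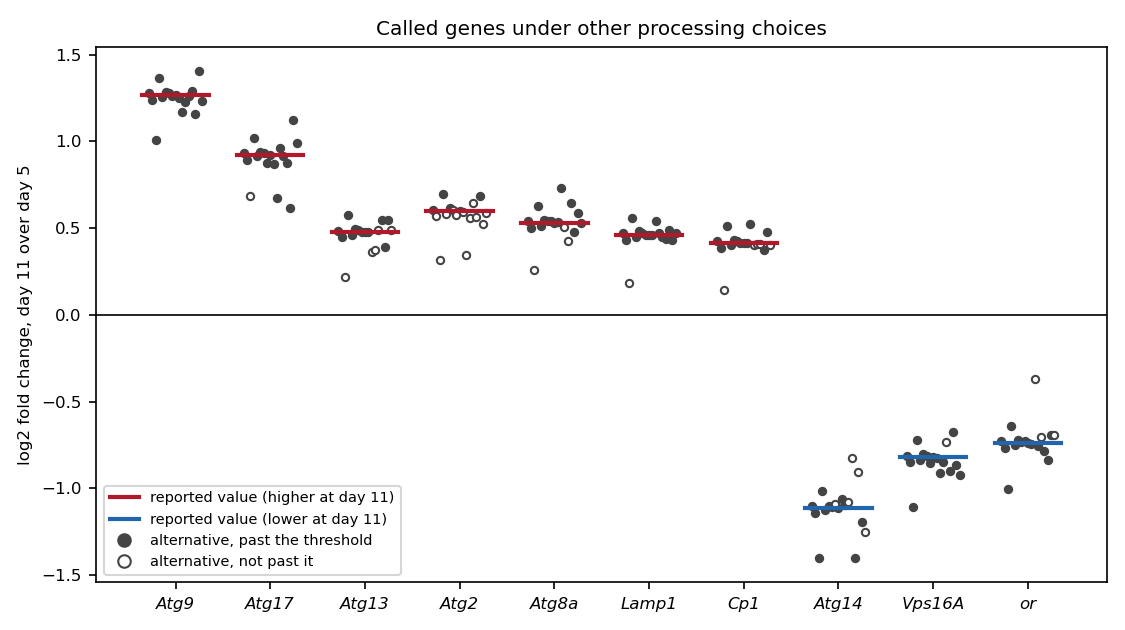
Log2 fold change at day 11 over day 5 (vertical axis) of the 10 called genes as reported (coloured lines) and under 17 other processing choices (points, filled where past the adjusted p threshold of 0.05 and open where not). All points keep their side of 0, Atg9 has filled points alone, and Atg2 has 12 open points.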

How the data were processed

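RNA of eye-antennal discs was read in 6 libraries, 3 of day 11 and 3 of day 5, by the time points of the labels. The authors deposited raw counts of reads, whole numbers for each gene and library. The submitters' processing notes list FastQC, cutadapt, STAR 2.6.1d and build dm6. Which annotation and counter they used, and how they treated strand and multiply matched reads, is not stated there. The QuantSeq forward kit, per the labels' protocols, reads transcripts near the 3′ end, and counts were not divided by length.

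Genes were kept by filterByExpr. Scaling was by TMM, and the main test was the quasi-likelihood F test in edgeR 4.0.16 under R 4.3.3, with robust shrinkage. It set day 11 against day 5 (two-sided). The Benjamini-Hochberg correction ran over all 8010 genes kept, with calls at 0.05, and rows of the chosen genes were read from that fit. The SE was derived from it, as the absolute unshrunk log2 fold change divided by the square root of F. The 95% intervals were t intervals with this SE around the reported log2 fold change. Levels are TMM-scaled CPM. In libraries of 6542782 to 9049513 counts, 3 counts stand for 0.321 to 0.461 CPM, which covers counting error alone. The genes, and the lists of partners and markers, were chosen with earlier results of these data known. Values by library are given for every called gene and every other with a mean of at least 20 CPM. From each partner list, the calls of smallest p with a mean of at least 5 CPM are named, up to 2 in each direction, and genes named beyond this were chosen after their values were seen. Loci and transcript lengths (median over annotated transcripts) are from the Ensembl annotation of the dm6 assembly.

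No label says that replicates were separate cultures, which is why p-values describe the spread among these libraries and that spread can be technical. With 3 against 3 libraries the smallest exact permutation p is 0.1. Within a day, counts of any 2 libraries differed beyond sampling noise (chi-square per degree of freedom 8.88 to 95.9). Day 11 replicate 1 stood apart, at 95.9 against replicate 2 and 74 against replicate 3. Day 11 replicates 2 and 3 differed by 8.88, and the day 5 pairs by 14.3 to 19.1. On simulated counts for this comparison, in 7860 genes, the test recovered 52.0% of 2-fold and 92.5% of 4-fold changes, with 12 false calls among 149. There 98 genes were changed 2-fold and 93 genes 4-fold, and counts were drawn independently for each gene. In the data 37.0% of genes were called, so these rates may not hold for it. The alternatives were scaling by DESeq2 1.42.0 size factors, by upper quartiles, by total counts, or by totals that omit the abundant pair CR40469 and CR34335; dropping the low-count filter or raising it to 5 CPM in 3 libraries; testing with DESeq2, limma-voom (limma 3.58.1) or edgeR lacking robust shrinkage; a replicate block; offsets that remove the length trend (loess, span 0.5, for the 98.6% of genes with a length); and leaving out each library. Promoter and protein sequences were not used here.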

Additional observations from a re-analysis of the deposited data

How the results depend on the processing

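With 17 alternatives, the 7 rises, 3 falls and median of 0.23 changed as follows. Total counts gave 1 rise, 6 falls and a median of -0.038, and 6 falls among the partner genes. Over all genes total counts gave 864 rises and 2207 falls, against 1533 and 1432 with TMM. Total counts without the abundant RNA pair gave 11 rises, a median of 0.33 and 10 partner rises. Removing the length trend gave a median of 0.11. With a library left out, rises numbered 3 to 11, falls 0 to 4 and the median was 0.12 to 0.24, while the partner genes had 3 to 11 rises and 0 to 4 falls. The cause was not tested.

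Of the 10 called genes 1 kept its call throughout, none changed sign, and 9 uncalled genes were called under some alternative. Uncalled estimates near 0 changed sign. Under total counts these were lt (-0.24), Atg1 (-0.029), Vps33B (-0.18), rb (-0.0047), g (-0.0002), car (-0.052), cathD (-0.18), dor (-0.038) and Atg5 (-0.16). Without the abundant RNA pair they were p (0.018), Atg16 (0.044) and Atg7 (0.092). Atg7 was also positive with DESeq2 size factors (0.0023), the filter of 5 CPM (0.011) and the DESeq2 Wald test (0.0016), lt turned to -0.12 with the length trend removed, and Atg5 to -0.022 with limma-voom. With a library left out the values ran from -0.049 to 0.090 for lt, -0.32 to 0.15 for p, -0.21 to 0.26 for Vps33B, -0.10 to 0.034 for Atg16, -0.25 to 0.37 for cathD, -0.052 to 0.074 for Atg7, -0.42 to 0.094 for ca, -0.070 to 0.47 for dor and -0.27 to 0.42 for Atg5. The causes were not tested.

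Deviations from the mean of a day correlated at 0.050, 0.19 and -0.086 between same-numbered libraries, and at -0.23 to 0.17 between the others. Not every library correlated best with its own number. Deviations from a mean of 3 libraries constrain one another, so these values cannot decide whether the replicate numbers pair the libraries. With the replicate block the fit gave 7 rises, 3 falls and a median of 0.22, and 4 partner rises and 3 falls. Genes of a few CPM rest on few counts, so moderate changes of Atg12, ca, Vps33B or ref(2)P were not detectable at this depth.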

Other observations

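The small (sigma) subunit genes of the other clathrin adaptor complexes were read beside or, after their values were seen. AP-2sigma, whose complex takes up cargo at the cell surface, had 17.2, 26.4 and 20.6 CPM at day 11, against 39.6, 48.1 and 40.7 CPM at day 5. The days were far apart (log2 fold change -1.01, SE 0.18, edgeR adjusted p = 0.00118), and AP-2sigma stayed called under all 17 other choices, at -0.60 with the trend on transcript length removed. AP-1sigma, of the adaptor at the Golgi, had 42.0, 37.5 and 35.4 CPM at day 11, against 44.5, 44.8 and 40.4 CPM at day 5, and was not called (log2 fold change -0.17, 95% interval -0.48 to 0.13). Of the 7 adaptor genes outside AP-3, AP-2sigma was the one called and no gene rose. The share called was 14.3%, against 37.0% of all genes tested.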
